A study of Drosophila melanogaster with 12 samples.

Results

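Heads of males from 2 neutral populations of Drosophila melanogaster, neutral I and neutral II, were compared with each other on 3 Affymetrix arrays each, 6 of the 12 arrays of the study. The arrays were taken by their titles, and all 13966 probe sets that are not array controls entered the comparison. Both populations descend from Canton-S, a standard laboratory wild type, and had been kept for 21 generations as references in a selection experiment on male fighting. In each generation their males were drawn at random from a cage from which the aggressive males had been taken out, a selection for less aggression to which the study's design note reports no significant response. The other 6 arrays come from aggressive I and aggressive II, Canton-S populations of the same generation selected for more fighting, with 3 arrays each. All males were 5 days old, and per the labels they were frozen in groups of about 120 and stored in groups of about 40. The line label of 2 of the 3 neutral I arrays names Canton-S without the word selected, which the remaining neutral I array and all 3 neutral II arrays carry. The question this pair of populations answers is how far 2 reference populations under the same regime stood apart in head transcripts, and in which genes.

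Populations of a finite number of breeders come to differ in allele frequencies from generation to generation even under the same handling, a process known as genetic drift, and they can also differ in the microbes and food conditions of their bottles. A fly head holds brain and compound eyes, and with them muscle, cuticle, blood cells and a layer of fat body, the insect counterpart of liver and fat tissue. The fat body makes storage proteins and, when immune receptors of the Toll and Imd pathways are engaged, small antimicrobial peptides that are secreted into the blood. Cytochrome P450 enzymes and glutathione S-transferases, also made there, chemically modify foreign compounds.

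Values are MAS5 signals, Affymetrix's linear measure of probe set brightness. The median signal of a neutral array lay between 972 and 1051. The 6 pairs of neutral arrays from the same population had a median correlation of 0.966 over kept probe sets, and the 9 pairs that cross the populations 0.965. The photoreceptor genes trp, Arr2, chp and inaD lay at or above the 95.5th percentile of mean signal. The accessory gland genes Acp36DE and Acp26Aa lay below the first percentile, and Mst57Dc and Mst57Da at percentiles 4.07 and 12.1. The testis gene Mst87F (percentile 56.4) and the eggshell genes Vm26Aa (53.7) and Cp36 (49) were bright enough to test. Mst87F had 1504 to 1969 in neutral I and 953 to 1062 in neutral II, and Vm26Aa 1169 to 2048 and 649 to 905. Cp36, at 414 to 1269.5 and 314 to 1699, overlapped. None of these genes passed the test described below, and the populations did not overlap for 14.8% of all tested probe sets. Whether a population's 3 arrays hold RNA of separate cultures is not in the labels, and the p-values measure the spread between these arrays, which may be technical. In whole heads, fewer cells of a type and less RNA per cell cannot be told apart.

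Between the neutral populations, 23 of the 8379 probe sets bright enough to be tested differed (0.274%) by limma with Benjamini-Hochberg adjustment at 0.05. Of these, 10 were higher in neutral I (0.119%) and 13 were lower (0.155%). Unadjusted p was under 0.05 for 708 probe sets (8.45%). The 3 arrays of each population did not overlap for all 23, as for 1236 of all tested probe sets (14.8%). Differences are log2(neutral I) minus log2(neutral II) after adding 94.9 to each signal and centring each array on its median. On this scale the 23 ranged from 1.51-fold to 4.68-fold, and 14 exceeded 1 log2 unit, as did another 40 probe sets that did not pass. The balance of directions rested on the scaling, with 16 higher and 13 lower without centring and 15 higher and 11 lower after quantile normalization. Of the 23, 19 probe sets belong to 1 gene each.

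**Figure D1:**
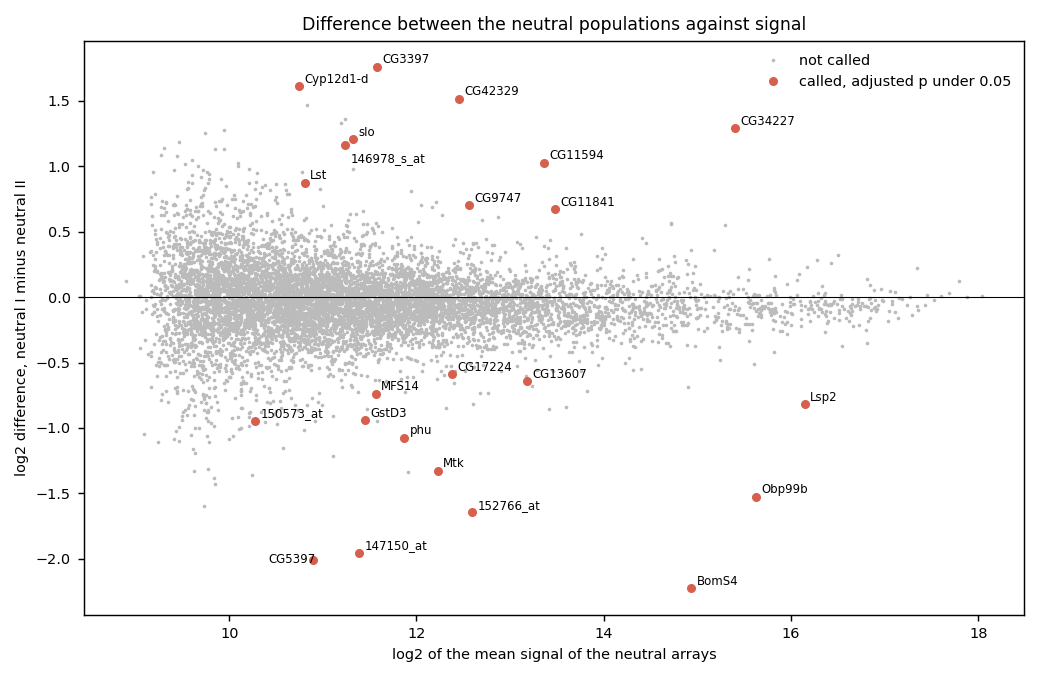
Log2 difference between neutral I and neutral II (vertical axis) against log2 of the mean signal over the 6 neutral arrays (horizontal axis) for the 8379 tested probe sets. The 23 that passed are drawn as large points with their names, from BomS4 at -2.23 to CG3397 at 1.76, while the spread of the others widens toward dim signals.

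The largest difference was in an immune peptide. BomS4 (CG18107), a bomanin, is a member of a family of short secreted peptides that flies make downstream of Toll and need against fungi and some bacteria. Its signal was 11235, 10834 and 11712 on the neutral I arrays, against 48936, 52531 and 52464 on the neutral II arrays. Every neutral II array was thus more than 4 times as bright as every neutral I array. The log2 difference was -2.23 (SE 0.098, 4.68-fold lower in neutral I, limma adjusted p = 1.22e-06). Mtk (CG8175), metchnikowin, an antifungal and antibacterial peptide, was also lower in neutral I, with signals of 2584, 2945 and 2741 against 7172, 7217 and 6101 in neutral II. That is a log2 difference of -1.33 (SE 0.12, 2.51-fold, limma adjusted p = 0.000449), again with no overlap between the populations.

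The rest of the immune list, which covers recognition proteins as well as peptides, did not follow as a block. Of its 41 genes on the array, 33 were bright enough to test. Of these, 2 passed, both lower in neutral I, beside 0.274% of all tested probe sets. Unadjusted p was under 0.05 for 8, beside 8.45% of all tested probe sets. The median of the 33 was -0.0744, against -0.0423 for all tested probe sets. Of the 33, 13 were above 0 and 20 below, where 58% of all tested probe sets were below 0. The populations did not overlap for 5 genes higher in neutral I and for 7 lower, BomS4 and Mtk included, beside 14.8% of all tested probe sets. BomBc2, the bomanin next to BomS4 on chromosome arm 2R, had means of 56501 in neutral I and 57645 in neutral II (log2 difference -0.09, SE 0.13, limma adjusted p = 0.892). BomS2, the next gene along, had 2600.0 and 3977 (log2 difference -0.65, SE 0.15, limma adjusted p = 0.178). Bomanins are near relatives of each other, and how far a probe set of this array separates them was not tested. DptB, a diptericin and a target of the Imd pathway, singled out here after its values were seen, had signals of 2628, 2609.9 and 1462 in neutral I and 6104, 6064 and 4297 in neutral II. Its log2 difference of -1.34 was as large as that of Mtk, but with an SE of 0.26 it did not pass (limma adjusted p = 0.0882). Drs, drosomycin, the classical readout of Toll activity, averaged 3589 ± 153.7 in neutral I, against 3674 ± 493.3 in neutral II (SD, n = 3 arrays each), with a log2 difference of -0.07 and a 95% interval from -0.36 to 0.21.

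Most blood cell genes lay below 0 in the same comparison, and none passed. Of 14 haemocyte genes on the array, 12 were tested and 11 of these were below 0, against 58% of all tested probe sets, with a median of -0.244. None passed in limma. Beside 8.45% of all tested probe sets, 3 of the 12 had unadjusted p under 0.05. These were the collagen gene Col4a1, with signals of 6350.2, 5836 and 6721 in neutral I against 9540.3, 9079.9 and 8491 in neutral II (log2 difference -0.56, SE 0.10, limma adjusted p = 0.0551), and the prophenoloxidases PPO1 and PPO2, blood enzymes of melanin formation. Col4a1 passed with a filter at the 60th percentile (limma adjusted p = 0.0177) and with a trended and robust variance (limma adjusted p = 0.0102). PPO1 had a log2 difference of -0.82 (SE 0.16, limma adjusted p = 0.0882) and PPO2 of -0.57 (SE 0.12, limma adjusted p = 0.113). The summed signal of the haemocyte list was 74192 to 76768 on neutral I arrays and 83769 to 91613 on neutral II arrays. It was 74543 to 80298 on aggressive I arrays and 76378 to 80359 on aggressive II arrays, so neutral II stood above the other 3 populations. The part of blood cells in the immune peptide differences was not tested.

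**Figure D2:**
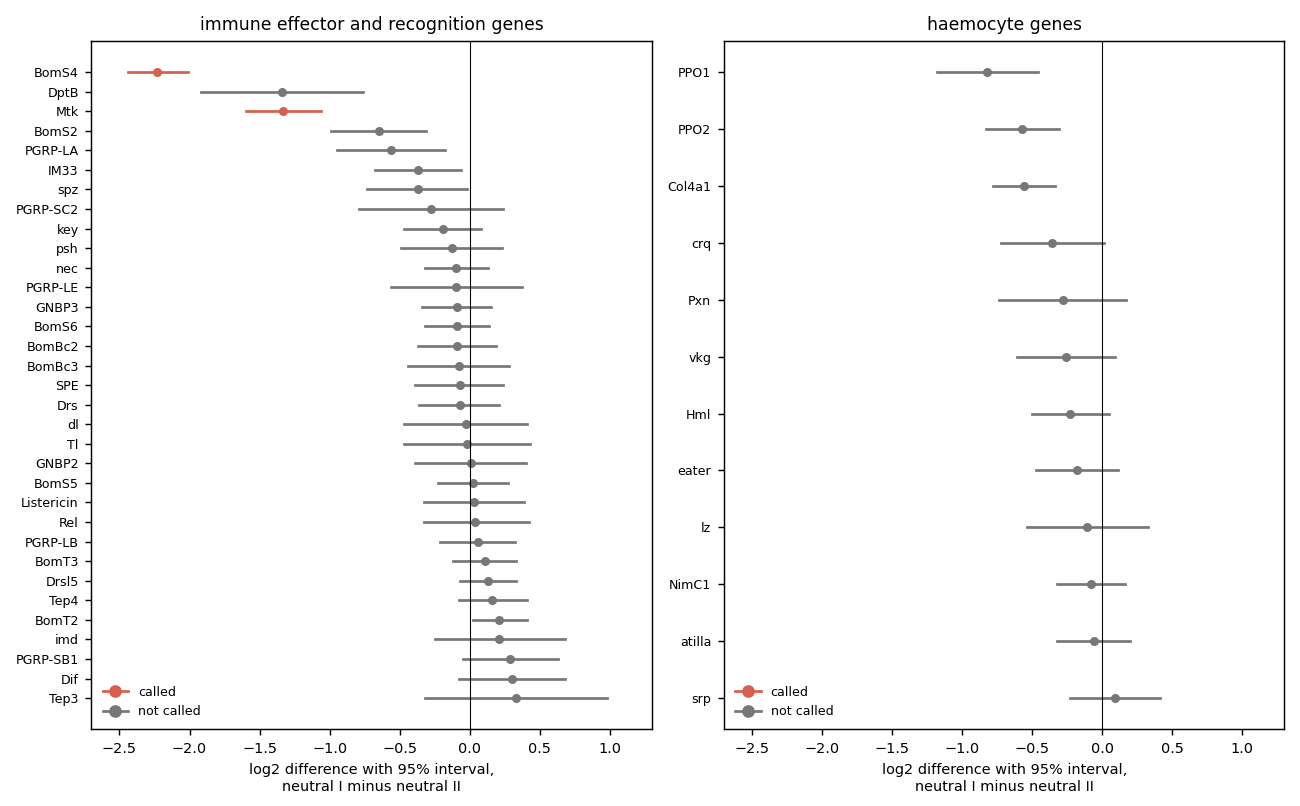
Log2 difference between neutral I and neutral II (horizontal axis) for the 33 tested immune genes (left) and the 12 tested haemocyte genes (right), each point with its 95% interval from limma. BomS4 and Mtk, the immune genes that passed, lie at -2.23 and -1.33, and 11 of the 12 haemocyte genes lie below 0 with none passing.

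Abundant fat body products made up the next group lower in neutral I. Obp99b (CG7592) is a secreted odorant-binding protein, listed with tsx among its synonyms and known for sex-dependent expression in the fat cells of the head. It had 25317, 27058 and 27805 in neutral I, against 76454, 75979 and 70990.2 in neutral II. The difference of -1.52 on the log2 scale (SE 0.10, 2.88-fold, limma adjusted p = 2.92e-05) left a wide gap between the populations. Lsp2 (CG6806), a storage protein of the fat body, had 48785, 53771 and 58329.7 in neutral I and 86511, 95279.8 and 92163 in neutral II. This difference of -0.82 on the log2 scale passed (SE 0.11, limma adjusted p = 0.0072), and the call was lost when only the 6 neutral arrays were fitted (limma adjusted p = 0.133).

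These 2 genes were the fat body list's only calls, among 15 tested of 19 on the array. Its median was -0.143, and 4 had unadjusted p under 0.05, against 8.45% of all tested probe sets. The summed signal of the list was 437133 to 491405 in neutral I and 551665 to 582071 in neutral II, with no overlap. Without Obp99b and Lsp2 it was 356304 to 405270.3 in neutral I and 380406 to 418917 in neutral II, and the populations overlapped. The lipid carrier gene apolpp, for example, had means of 90644 and 89329, with a log2 difference of -0.03 (SE 0.12, limma adjusted p = 0.971). Obp99b was also the sole call among 17 tested odorant-binding protein genes, 2 of which had unadjusted p under 0.05.

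Among enzymes that handle foreign compounds, 1 of 56 tested P450 genes passed, higher in neutral I, and 1 of 29 glutathione S-transferase genes passed, lower in neutral I. None of 14 UDP-glycosyltransferase and 10 carboxylesterase genes passed in limma, and 0 of either had unadjusted p under 0.05. Cyp12d1-d (CG33503), a mitochondrial cytochrome P450 known to be induced by insecticides, had 2646, 3224 and 2147 in neutral I and 825, 763 and 721 in neutral II. The lowest neutral I array was more than 2 times the highest neutral II array. The log2 difference was 1.61 (SE 0.21, 3.06-fold higher in neutral I, limma adjusted p = 0.0072), and the call was narrowly lost without neutral II array 3 (limma adjusted p = 0.0507). A further probe set, 146978_s_at, is assigned to both Cyp12d1-d and its adjacent near-identical copy Cyp12d1-p. The copies cannot be told apart by it, and how far the probe set assigned to Cyp12d1-d alone separates them was not tested. Probe set 146978_s_at had means of 3427 in neutral I and 1407 in neutral II, with a log2 difference of 1.16 (SE 0.19, limma adjusted p = 0.0318). Among the 6 neutral arrays, its call held without neutral I array 2 and was lost without any of the other 5. No other of the 56 tested P450 genes passed, and the list median was -0.115. Of the 56, 10 had unadjusted p under 0.05, against 8.45% of all tested probe sets.

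Cyp6a20, the P450 known in connection with fighting in this species, was near 0, with signals of 11880.1, 12293 and 11294 in neutral I and 9065, 11842 and 12380.0 in neutral II. The log2 difference was 0.05, with a 95% interval from -0.30 to 0.40 (limma adjusted p = 0.956). It changed sign, to -0.09, without neutral II array 1. Its aggressive means were 7727 and 4605.

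GstD3 (CG4381), a delta-class glutathione S-transferase, was lower in neutral I. It had 2170.1, 1841 and 1786 in neutral I, against 3428, 3810.4 and 3742 in neutral II, a log2 difference of -0.94 (SE 0.16, limma adjusted p = 0.0463). Near the threshold, the call was lost without any 1 of the 6 neutral arrays (limma adjusted p up to 0.215). Its neighbour GstD2 had a log2 difference of 0.56 (SE 0.19, limma adjusted p = 0.448), in the opposite direction, and GstD1 of -0.22 (SE 0.11, limma adjusted p = 0.632). None of the other 28 tested glutathione S-transferase genes passed. Of the 29, 6 had unadjusted p under 0.05, against 8.45% of all tested probe sets.

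Among other genes of known type, phu (CG8147), listed with the alkaline phosphatase name Alp3 among its synonyms, was lower in neutral I. Its signals of 2514, 2744 and 2076 stood against 4967, 4946 and 5219.9 in neutral II (log2 difference -1.07, SE 0.13, limma adjusted p = 0.00429). The call was lost with the 6 neutral arrays alone (limma adjusted p = 0.0916). MFS14 (CG15095), a membrane transporter of the major facilitator superfamily, had means of 2294 ± 145.3 in neutral I and 3763 ± 349.6 in neutral II (log2 difference -0.74, SE 0.13, limma adjusted p = 0.0497). The MFS14 call was lost without any 1 of the 12 arrays, and a dimmer probe set of the gene was not tested.

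The ion channel gene slo and the hormone gene Lst were higher in neutral I. The gene slo (CG10693) encodes the pore of a calcium-activated potassium channel that repolarises neurons and muscle. It had 3421, 4462 and 3065 in neutral I and 1162, 1739.7 and 1515 in neutral II (log2 difference 1.21, SE 0.20, limma adjusted p = 0.0402). Lst (CG8317), limostatin, a hormone released on starvation that restrains insulin secretion, had 2481, 2174 and 2455 in neutral I and 1215, 1051 and 1366 in neutral II (log2 difference 0.87, SE 0.15, limma adjusted p = 0.0402). The populations did not overlap for either gene. Lst lost its call without any 1 of the 6 neutral arrays, and slo without any except neutral II array 2.

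Also higher in neutral I were CG9747, a fatty acid desaturase, with a mean of 7601 ± 697 against 4470.0 ± 218.9 in neutral II (log2 difference 0.70, SE 0.11, limma adjusted p = 0.0318), and CG11841, a serine protease family gene listed as SP45. CG11841 had 14178 ± 314.7 in neutral I and 8586 ± 734.3 in neutral II (log2 difference 0.67, SE 0.098, limma adjusted p = 0.0153). Among the 6 neutral arrays, the CG9747 call held only without neutral I array 3 and the CG11841 call only without neutral II array 3.

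The remaining calls fell on genes that carry only a CG number in the tables used here. CG42329 and CG5397 are next to each other among the protein-coding genes of chromosome arm 2L, and they differed in opposite directions. CG42329 had 8508, 8523 and 8201 in neutral I against 2824, 2699.6 and 2803 in neutral II (log2 difference 1.52, SE 0.091, limma adjusted p = 1.79e-05). CG5397 had 693, 805 and 662 in neutral I against 2920.3, 3740.4 and 2625 in neutral II (log2 difference -2.01, SE 0.16, limma adjusted p = 0.000101). A second probe set of CG42329 had 2079.5 in neutral I and 1118 in neutral II, the same direction, without passing (log2 difference 0.79, SE 0.32, limma adjusted p = 0.54).

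CG3397 was the most different of the genes higher in neutral I, with 4497, 4936 and 4944 against 1132, 1212 and 1589.5 in neutral II (log2 difference 1.76, SE 0.12, 3.39-fold, limma adjusted p = 4.01e-05). CG34227 (also listed as CG7738) was among the brightest genes that passed. It had 54311, 69925 and 62265 in neutral I and 26307, 23449 and 23410.0 in neutral II (log2 difference 1.29, SE 0.14, limma adjusted p = 0.002). CG11594 had 13848, 15437 and 13593 in neutral I and 6961, 6615 and 6583 in neutral II (log2 difference 1.03, SE 0.098, limma adjusted p = 0.000505). For all 3, neutral II was the population with the lowest mean of the 4 in the study.

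Smaller differences were found for CG13607, with means of 7402 in neutral I and 11209.6 in neutral II, and for CG17224, with 4314 in neutral I and 6332 in neutral II. Their log2 differences were -0.64 and -0.59 (SE 0.11 and 0.10, limma adjusted p = 0.0402 and 0.0497), and both calls were lost without any 1 of the 6 neutral arrays. The 3 probe sets without a single gene that were lower in neutral I were 147150_at, 152766_at and 150573_at. The first had 910.4, 1358 and 971 in neutral I against 3449, 4545 and 4867 in neutral II, a log2 difference of -1.95 (SE 0.19, limma adjusted p = 0.000542). The others had log2 differences of -1.65 (SE 0.15, limma adjusted p = 0.000449) and -0.95 (SE 0.12, limma adjusted p = 0.0072).

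**Figure D3:**
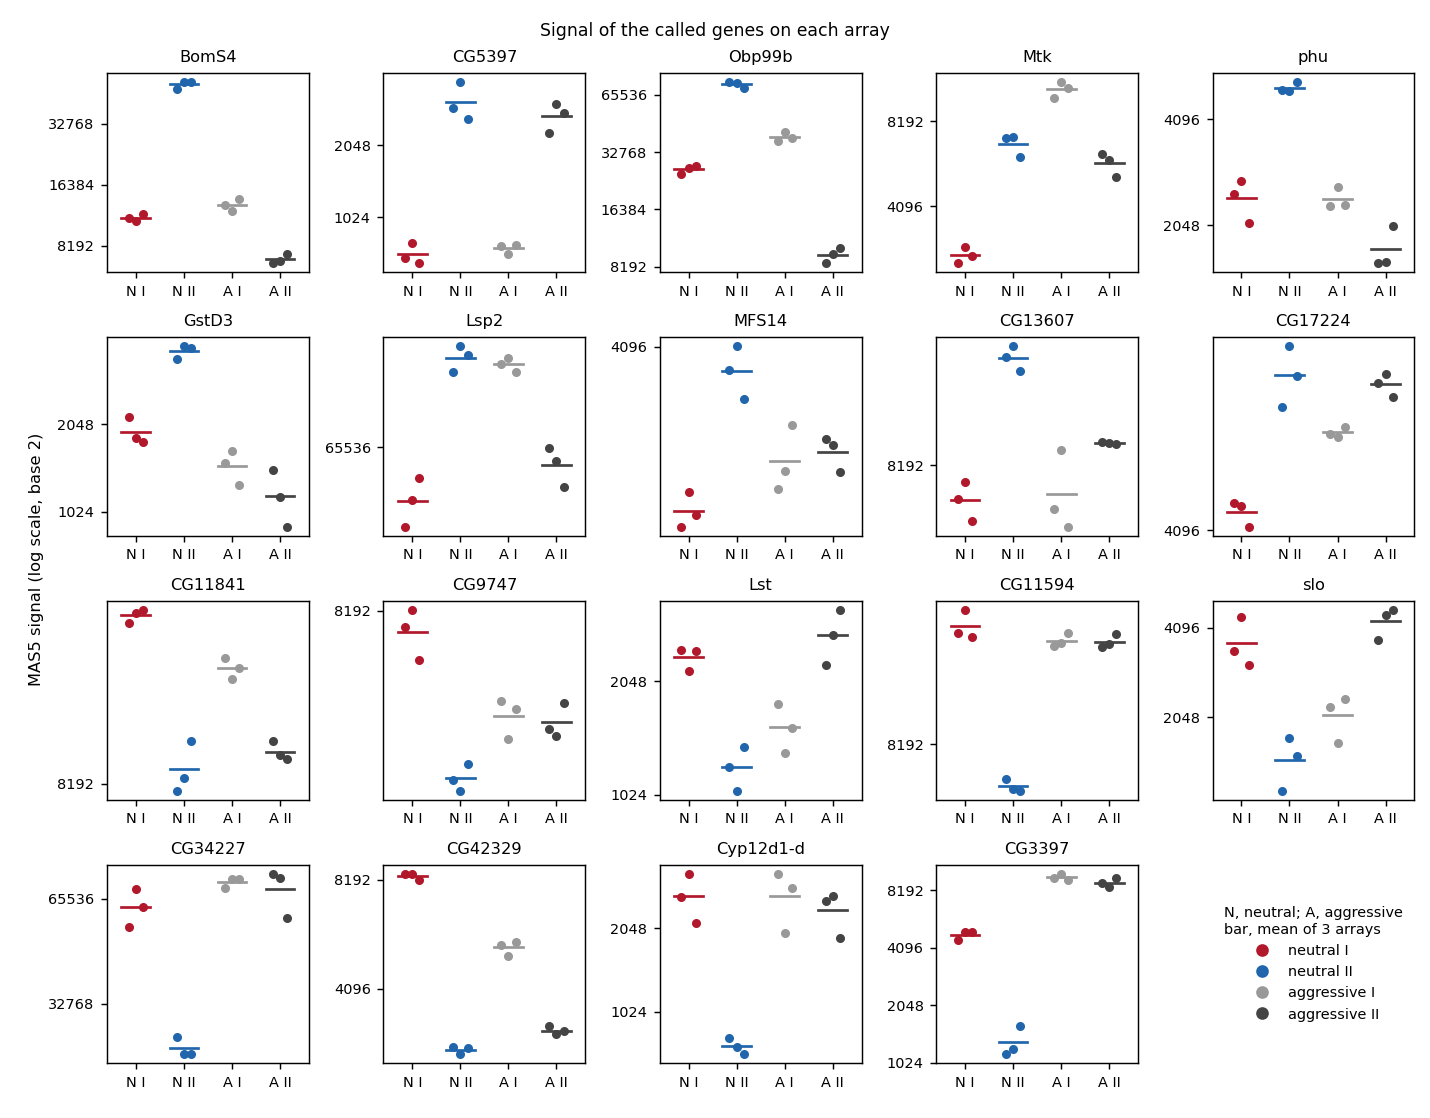
MAS5 signal on every array (vertical axes, base 2 log scale, a scale per panel) for the 19 genes that passed between neutral I and neutral II, with the 3 arrays of neutral I (N I), neutral II (N II), aggressive I (A I) and aggressive II (A II) as points and their mean as a bar. Panels run from the gene lowest in neutral I (BomS4) to the highest (CG3397), and in each of them the red and blue points do not overlap.

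The aggressive populations, which share no array with the neutral ones, give a second pair kept under a single regime. Between aggressive I and aggressive II, 49 of the 8379 probe sets passed (0.585%), and 1078 had unadjusted p under 0.05 (12.9%). The order of the counts turned when each pair's 6 arrays were fitted alone, with 11 between the neutral and 10 between the aggressive populations. It held in the other alternatives, but narrowly without aggressive II array 3, with 19 between the neutral and 21 between the aggressive populations. The median absolute log2 difference over tested probe sets was 0.143 between the neutral populations and 0.165 between the aggressive populations. Of the 23 probe sets that passed between the neutral populations, 7 also passed between the aggressive ones, which is 30.4% of the 23 and 14.3% of the 49. The numerals I and II are not said to link a neutral population with an aggressive one, so the sign of the aggressive difference has no meaning beside that of the neutral one. In these 7, the difference of population I from population II ran the same way in both pairs for CG5397, 152766_at and CG42329, and the opposite way for BomS4, Obp99b, Mtk and Lsp2.

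Several of these genes varied over all 4 populations. Obp99b averaged 26726 in neutral I and 74474 in neutral II, and 39524 in aggressive I and 9460.1 in aggressive II. Its aggressive difference was 2.10 on the log2 scale (SE 0.10, limma adjusted p = 2.93e-06), beside -1.52 between the neutral populations. It was not shown to be the larger in size, as the sum of the 2 differences did not pass (0.58, limma adjusted p = 0.17). Mtk averaged 2757 in neutral I and 6829.9 in neutral II, and 10648 in aggressive I and 5810.5 in aggressive II. CG5397 fell into a low and a high level, at 720.0 in neutral I and 764 in aggressive I, and at 3095 in neutral II and 2699 in aggressive II. Probe set 152766_at was split the same way, at 3024 in neutral I and 3085 in aggressive I, and at 9326 in neutral II and 9966 in aggressive II.

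A difference that is larger between the neutral than between the aggressive populations, whichever way the aggressive pair is signed, was found for 6 probe sets (0.0716%), all of them among the 23. They were BomS4, 147150_at, CG11594, CG34227, CG42329 and CG3397. The reverse, a difference larger between the aggressive populations, was found for 5 (0.0597%). For CG3397, the means were 4792 in neutral I and 1311 in neutral II, beside 9586 in aggressive I and 8999 in aggressive II, whose log2 difference was 0.14 with a 95% interval from -0.13 to 0.41. CG11594 averaged 14293 in neutral I and 6719.7 in neutral II, and 13347 in aggressive I and 13289 in aggressive II. CG34227 averaged 62167 in neutral I and 24389 in neutral II, and 73197 in aggressive I and 70132 in aggressive II. BomS4, CG11594 and CG3397 kept this result without any 1 of the 12 arrays. CG42329 lost it without any 1 of them, CG34227 without 10 of them and 147150_at without 9.

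Neutral II was the population that stood apart more often. Its mean was the highest or lowest of the 4 populations for 21 of the 23 probe sets, and that of neutral I for 14. Both neutral means were outermost for 12, neutral II alone for 9 and neutral I alone, for Mtk and 152766_at, for 2. Both aggressive means lay nearer to neutral I for 13 probe sets and nearer to neutral II for 3, namely Mtk, CG17224 and CG9747, and the aggressive populations were divided for 7. These counts describe the 23 probe sets, which were chosen by the neutral difference, and no test was made of them.

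**Figure D4:**
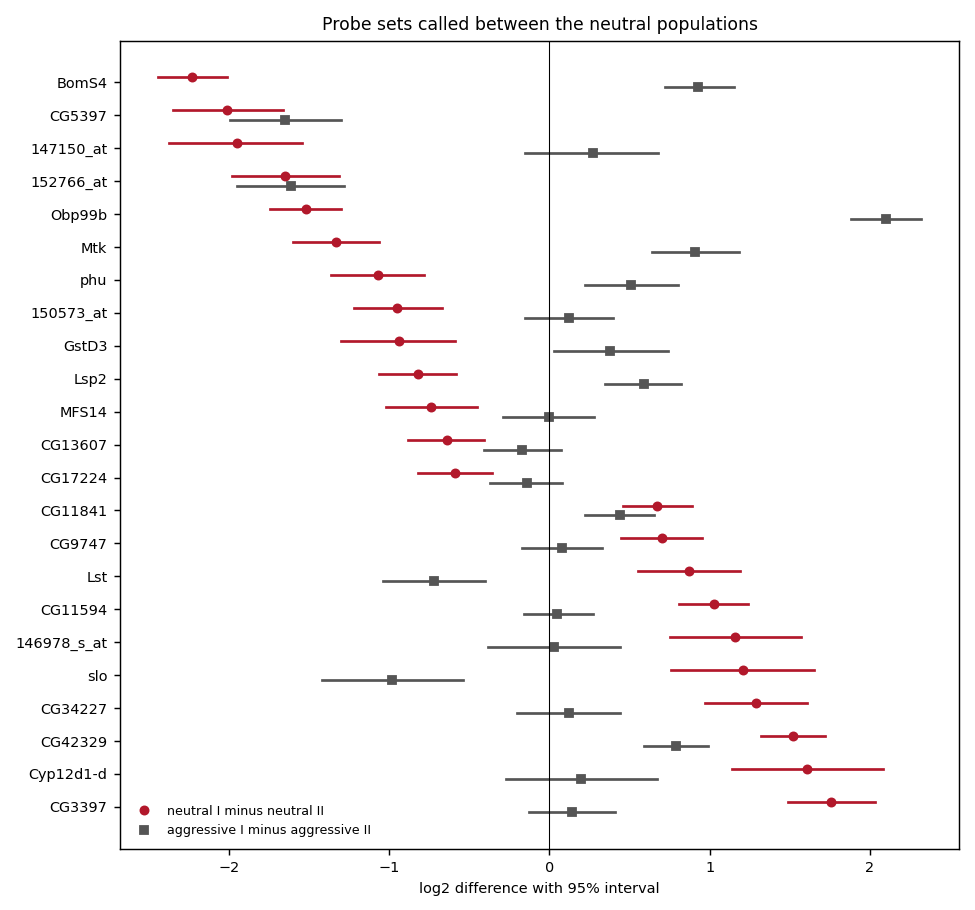
Log2 difference with 95% interval from limma for the 23 probe sets that passed between the neutral populations, as neutral I minus neutral II (circles) and as aggressive I minus aggressive II (squares). Obp99b lies at -1.52 between the neutral and at 2.10 between the aggressive populations, while CG3397, CG11594 and CG34227 lie above 1 between the neutral populations and have intervals that include 0 between the aggressive ones.

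By position, the 19 named genes that passed lay on the large autosomes. There were 3 among 1231 tested genes on arm 2L (0.244%), 6 among 1391 on 2R (0.431%), 2 among 1319 on 3L (0.152%) and 8 among 1702 on 3R (0.47%). None of the 1161 tested genes on X or of the 48 on chromosome 4 passed in limma, where 75 and 4 had unadjusted p under 0.05. CG42329 and CG5397 were the sole pair of passing genes within 5 tested genes of each other, which makes 2 of 19, against 180 of the 6833 other genes with a passing gene that near (2.63%). Of the 38 places directly beside a passing gene, 20 held a gene bright enough to test. Besides CG42329 and CG5397 these were 18, of which none passed in limma and 1 had unadjusted p under 0.05. Cyp12d1-p, beside Cyp12d1-d, had no tested probe set of its own and is outside these counts. Probe set 146978_s_at, assigned to both copies, did pass. CG12224, beside CG3397, had means of 3255 in neutral I and 2249 in neutral II (log2 difference 0.48, SE 0.23, limma adjusted p = 0.604), and CG11842, beside CG11841, had 5241 and 4717 (log2 difference 0.10, SE 0.12, limma adjusted p = 0.863). Dup99B, the gene next to Obp99b on one side, was not among the tested genes, and CG15506 on the other had a log2 difference of -0.20 (SE 0.32, limma adjusted p = 0.903).

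Most genes of the proteasome, oxidative phosphorylation and ribosomal protein lists lay slightly below 0, and none passed in limma. Of 26 tested proteasome subunit genes, which encode the protease complex that degrades tagged proteins, 25 were below 0, with a median of -0.138. Of 50 oxidative phosphorylation genes, which encode the mitochondrial respiratory chain, 45 were below 0 (median -0.122), and of 27 cytosolic ribosomal protein genes 24 were (median -0.07). By comparison, 4859 of all 8379 probe sets, or 58%, were below 0. At unadjusted p under 0.05 these lists held 2, 4 and 1 genes. The lowest p values among them were those of ND-15, a subunit of respiratory complex I, with 11201 ± 1566 in neutral I and 17789 ± 504 in neutral II (log2 difference -0.72, SE 0.15, limma adjusted p = 0.113), and of Prosbeta5, a catalytic proteasome subunit, with a log2 difference of -0.34 (SE 0.11, limma adjusted p = 0.408). ND-15 passed with a filter at the 60th percentile (limma adjusted p = 0.0376) and with a trended and robust variance (limma adjusted p = 0.0159). The counts moved with the scaling of the arrays. Centring shifts the median of all probe sets, which is 0.0067 without it and -0.0423 with it. Without centring, 22 of 26 proteasome, 41 of 50 oxidative phosphorylation and 15 of 27 ribosomal protein genes were below 0. So were 4073 of all 8379 probe sets.

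Other lists of metabolism and stress also held no call in limma. Mitochondrial ribosomal protein genes had a median of -0.079 over 63 genes, 2 of them at unadjusted p under 0.05. Within this list mRpL43 stood out in size, with signals of 3368, 3039 and 1727 in neutral I against 434, 1389 and 976 in neutral II, but its wide spread between arrays kept it from passing (log2 difference 1.47, SE 0.36, limma adjusted p = 0.225). Sugar metabolism genes had a median of -0.0586 over 23 genes, or 0.0214 after quantile normalization, with Gpdh1, the glycerol 3-phosphate dehydrogenase that links glycolysis to lipid synthesis, at 7543 ± 1031 in neutral I and 11681 ± 768.5 in neutral II (log2 difference -0.68, SE 0.16, limma adjusted p = 0.198, or 0.0485 with a trended and robust variance). Lipid metabolism genes had a median of -0.0816 over 22 genes. Of these, 6 were at unadjusted p under 0.05, against 8.45% of all tested probe sets. AkhR, the receptor of the fat-mobilising adipokinetic hormone, had a log2 difference of -0.64 (SE 0.16, limma adjusted p = 0.244). Heat shock protein genes had a median of -0.0409 over 11 genes, which was above 0 without centring and after quantile normalization, and Hsp27, a small heat shock protein, a log2 difference of 0.52 (SE 0.23, limma adjusted p = 0.555).

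In the brain and sense organ lists, slo was the sole call, in the list of synaptic release genes (23 tested, median 0.0183, 3 at unadjusted p under 0.05). Neuropeptide genes (23 tested, median -0.0973), biogenic amine genes (20, median -0.0647, above 0 after quantile normalization) and circadian clock genes (14, median -0.045, above 0 without centring and after quantile normalization) held no call in limma, with 3, 0 and 1 genes at unadjusted p under 0.05. Their genes of lowest p were the peptide gene CCHa2 (log2 difference -0.27, limma adjusted p = 0.516), the dopamine and ecdysteroid receptor gene DopEcR (0.18, limma adjusted p = 0.679) and the clock repressor gene vri (-0.27, limma adjusted p = 0.464). Photoreceptor genes were centred near 0 (22 tested, median 0.00493, 1 at unadjusted p under 0.05), with trp, the light-activated cation channel, at 42285 ± 3785 in neutral I and 31948 ± 5271 in neutral II (log2 difference 0.36, SE 0.14, limma adjusted p = 0.529). Chemoreceptor genes had the highest median of the lists, 0.171, over the 19 of 154 that were bright enough to test. The populations did not overlap for 3 of the 19, a share near the 14.8% of all tested probe sets, and 3 had unadjusted p under 0.05.

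Markers of tissues other than brain and eye gave no call apart from the fat body genes. The muscle list had a median of -0.0209 over 18 genes, above 0 without centring and after quantile normalization, with TpnC41C, a troponin C, at 4174 ± 479.4 in neutral I and 2897 ± 301.8 in neutral II (log2 difference 0.46, SE 0.12, limma adjusted p = 0.271). Glia genes had a median of -0.0779 over 16 genes, and cuticle protein genes of 0.0973 over 44. At unadjusted p under 0.05 there were 2 muscle, 1 glia and 6 cuticle protein genes. Of 43 testis and accessory gland genes 8 were tested, of 25 ovary genes 9 and of 36 midgut genes 19, with medians of 0.0644, 0.0236 and 0.0572 and with 2, 0 and 3 genes at unadjusted p under 0.05. Of the 8 testis and accessory gland genes, 6 were above 0. Their gene of lowest p, mia, was below 0 (log2 difference -0.40, SE 0.13, limma adjusted p = 0.442). A dimmer, untested probe set of mia had means of 492 in neutral I and 167 in neutral II. The ovary list, drawn by name pattern, includes Cp190 and Cp110, which are not eggshell genes. The list of dosage compensation and sex determination genes had a median of -0.00592 over 11 genes, above 0 under both of these scalings, with 1 of them at unadjusted p under 0.05.

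**Figure D5:**
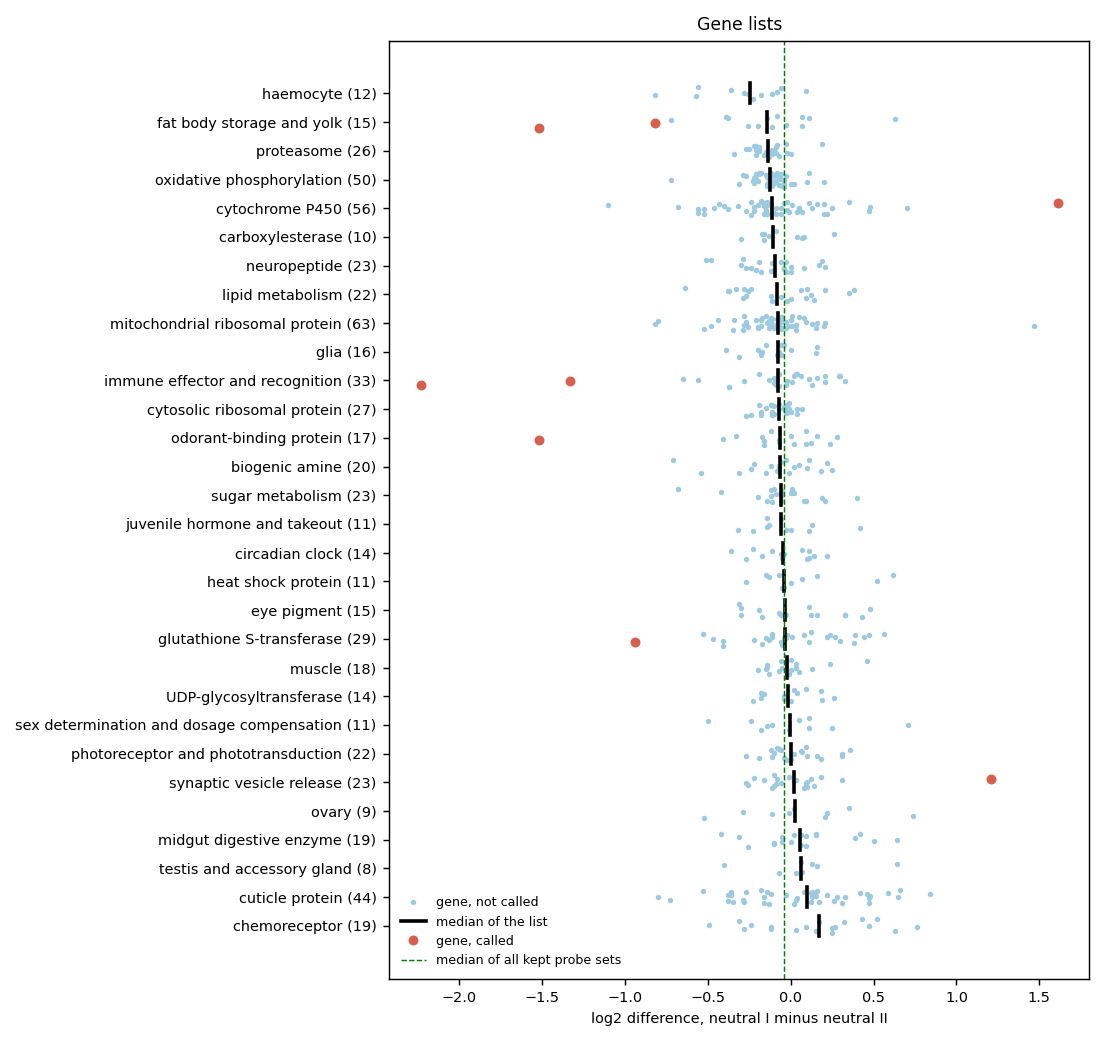
Log2 difference between neutral I and neutral II (horizontal axis) of every tested gene of 30 gene lists, with the number of tested genes in brackets and the list's median as a black bar. Lists are sorted by median, from haemocyte genes at -0.244 to chemoreceptor genes at 0.171, the dashed line is the median of all tested probe sets at -0.0423, and large points are genes that passed.

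Among measures of the arrays themselves, the ratio of 3' to 5' signal of the control gene eIF-4a was higher in neutral I, with log2 values of 1.833, 1.861 and 2.065 against 1.373, 1.569 and 1.698 in neutral II. The exact two-sided permutation test gave p = 0.1, the smallest that 3 arrays against 3 allow. The same ratio for actin and GAPDH, the 18S rRNA signal, the spike-in controls, the median signal and the mean correlation with other arrays gave exact permutation p between 0.2 and 0.9, and their part in the gene differences was not tested.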

How the data were processed

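Each of the 12 samples was hybridised to 1 single-colour array (Trizol RNA, biotin label, per the labels). The authors deposited probe set intensities on a linear scale, made with MAS5 per the submitters' processing notes, its version being not given in the sources used here. The values show that arrays had been brought to a trimmed mean of 2500 with the lowest and highest 2% set aside, so total RNA is not measured. Scanner files and detection calls were not analysed here. No pair of arrays was identical.

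Besides 44 controls there were 13966 probe sets, of which 12442 had 1 gene in the array's annotation table, 327 several and 1197 none. Of those with 1 gene, 12393 were in the RefSeq table (Release 6), used for names, chromosome arms and neighbours. No coordinates or sequences are given.

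Intensities were transformed as log2(intensity + 94.9), 94.9 being their 10th percentile, and centred on each array's median. The 8379 probe sets whose mean exceeded the 40th percentile were tested. In R 4.3.3, limma 3.58.1 was fitted with 4 population means over 12 arrays (prior df 2.93, residual df 8, median SE 0.172), with Benjamini-Hochberg adjustment at 0.05. A difference larger between neutral than aggressive populations needed both the difference and the sum of the 2 contrasts to pass. The number of arrays limits the precision.

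Gene lists are patterns on symbols, with the brightest probe set per gene, described without a test. Named genes are called genes (up to 15 each way), Cyp6a20, each list's called genes or its gene of lowest p, and those larger between the neutral populations. The members and lists were chosen with earlier results of these data known. Alternatives were the pseudocount, filter, scaling, variance model, replicate block, a pair's 6 arrays alone and leaving out each array. List sums without called genes were added after seeing the data.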

Additional observations from a re-analysis of the deposited data

Results flagged for a closer look

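In 6 probe sets the difference between the neutral populations was larger than that between the aggressive populations by a test of the difference itself, made for both signs of the aggressive pair. BomS4 differed by -2.23 between neutral I and neutral II on the log2 scale, and by 0.93 between aggressive I and aggressive II (limma adjusted p = 5.94e-07 for the difference of the 2 and 0.00199 for their sum). Probe set 147150_at differed by -1.95 and 0.27 (limma adjusted p = 0.00319 and 0.0299), CG11594 by 1.03 and 0.05 (limma adjusted p = 0.00994 and 0.00651), and CG34227 by 1.29 and 0.12 (limma adjusted p = 0.0371 and 0.016). CG42329 differed by 1.52 and 0.79 (limma adjusted p = 0.0428 and 1.64e-05), and CG3397 by 1.76 and 0.14 (limma adjusted p = 0.00152 and 0.000518).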

How the results depend on the processing

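The 23 calls became 46 with a filter at the 60th percentile, 57 with a trended and robust variance, 11 with only the 6 neutral arrays, and 14 to 23 with each array left out. They fell to 14 without neutral I array 1 or neutral II array 1, and to 15 without neutral II array 3, aggressive I array 3 or aggressive II array 2. Of the 23, 10 passed in all 21 alternatives and 13 without each of the 12 arrays. The 49 calls between aggressive I and aggressive II became 83 with the stricter filter, 26 with no filter, 10 with the 6 aggressive arrays alone, 125 with the trended variance, and 21 to 47 with each array left out, fewest without aggressive II array 3. The 6 larger between neutral populations became 3 with no filter and 3 to 4 with each array left out, and could not be fitted on 6 arrays. Same-numbered neutral arrays did not deviate together (correlations -0.0409, 0.0581 and 0.0249). Whether the numbers pair the samples is not in the labels, and correlations over all probe sets cannot exclude it. With the replicate block, the counts were 16 between the neutral populations, 28 between the aggressive populations and 4 larger between neutral. Among 1001 alternative values of named genes, 1 changed sign, Cyp6a20 (-0.09 without neutral II array 1, up to 0.13 without neutral II array 3), 120 calls were lost and 5 gained (Col4a1 and ND-15 with the stricter filter and the trended variance, Gpdh1 with the trended variance alone). Of the list medians, 47 of 630 moved by more than the spread between arrays. The cause of these moves was not tested. Dim probe sets are compressed by the added 94.9.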
